A study of Mus musculus with 8 samples.

Results

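The 38 genes described here were imprinted genes of the mouse, chosen by symbol from a list of well-known members of imprinted clusters by a rule that uses no measured value. All 38 had a row among the 29092 genes of the mRNA count table, and all 38 were among the 18866 genes that had enough counts to be tested. For 35 of them both cell populations had enough counts, while *Phlda2*, *Ascl2* and *Dio3* were tested on the strength of gut cells alone. GFP+ enteric neural crest-derived cells (ENCDCs) and GFP- gut cells were separated by flow cytometry from the whole bowel, stomach to anus, of *Ednrb-EGFP* mouse embryos at E13.5. The parents were heterozygous *Ednrb-EGFP* and C57BL/6J mice, the genotype is labelled wild-type, and every sample of both populations came from this one genotype and age with no treatment. GFP follows the *Ednrb* promoter, which is active in all cells of the enteric nervous system lineage at this age. Gut cells were everything else in the dissociated bowel, so that group mixes mesenchyme, smooth muscle, epithelium, endothelium, mesothelium and blood cells. There were 4 mRNA-seq libraries of each population, and RNA of several samples had been pooled for a library where needed. The p-values below therefore measure the spread between libraries, which may in part be technical.

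Imprinted genes are expressed mainly or only from the copy inherited from one parent. DNA methylation laid down in egg or sperm at imprinting control regions marks the copies, and zinc finger proteins such as ZFP57, with the corepressor TRIM28, keep those marks through early development. Many imprinted genes lie in clusters that hold both maternally and paternally expressed genes, often with a long noncoding RNA. As a family they are known for the control of fetal growth, for expression in embryonic mesenchyme and placenta, and for roles in the developing nervous system. The reads did not tell the parental copies apart, so each value below is the sum over both copies, and no value here measures imprinting itself. In bulk RNA of sorted cells, fewer cells that express a gene and less RNA per cell cannot be told apart.

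The libraries had been brought to nearly the same depth, with 13250893 to 13267220 counts each. Across genes, libraries of one population correlated at 0.906 to 0.951 (Pearson r, ENCDCs) and 0.938 to 0.948 (gut cells), against 0.798 to 0.819 between populations, and genes are not independent replicates. Crest, neuron, mesenchyme and smooth muscle markers went the way of the cell labels, and endothelial markers did not separate the populations. All 5 epithelial, all 4 leukocyte and all 5 erythroid markers were called lower in ENCDCs, as were 3 of 4 mesothelial markers. The 6 enteric crest markers, among them *Ret* and *Sox10*, made up 0.514 to 0.617% of the counts in ENCDCs and 0.0207 to 0.0251% in gut cells, and all 6 crest and all 6 neuronal markers were called higher in ENCDCs. Counts of the 7 mesenchyme markers were low in ENCDCs but not absent, at 0.0217 to 0.153% of all counts against 1.14 to 1.50% in gut cells, while the 5 endothelial markers made up 0.00527 to 0.00886% in ENCDCs and 0.00514 to 0.00728% in gut cells, with 1 called higher and 3 lower. No marker on any list was at 0 in every library of a population. ENCDC replicate 3 stood apart from the other ENCDC libraries, with the highest mesenchyme, smooth muscle, epithelial, erythroid and mesothelial sums. Results that rest on it are given with and without it.

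A few sequences show what the reads stand for. The promoters of *Mest* and *Meg3* are shown because both genes carry the letters TGCCGC, the core of the motif that ZFP57 binds when methylated, just upstream of a start site, and because they moved in opposite directions in these cells. Each line below gives the 250 bases before one RefSeq start site in the GRCm38.p6 assembly (the mm10 build), 5′ to 3′ on the plus strand, which is the strand of both genes. Capitals mark GCGGCA, the reverse complement of TGCCGC. The *Mest* stretch, chr6:30737800-30738049, lies inside the gene model of the longer *Mest* transcripts. The *Meg3* stretch, chr12:109540746-109540995, lies just before the gene.
Mest: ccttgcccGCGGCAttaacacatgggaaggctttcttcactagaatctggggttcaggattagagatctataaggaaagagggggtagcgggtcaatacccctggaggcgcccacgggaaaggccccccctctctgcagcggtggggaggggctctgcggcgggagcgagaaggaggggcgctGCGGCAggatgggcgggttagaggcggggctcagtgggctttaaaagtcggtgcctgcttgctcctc
Meg3: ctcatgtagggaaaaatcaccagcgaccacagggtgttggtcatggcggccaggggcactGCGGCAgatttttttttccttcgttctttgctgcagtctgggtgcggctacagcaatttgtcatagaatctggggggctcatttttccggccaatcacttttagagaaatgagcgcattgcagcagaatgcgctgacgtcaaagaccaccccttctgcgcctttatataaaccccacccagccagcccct

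RefSeq promoter windows of 300 bases, 250 before and 50 after a start site, were at hand for 32 of the 38 genes. TGCCGC, on either strand, was in a window of 9 of these 32 genes (28.1%) and of 3527 of 27025 genes of the genome (13.1%). Counted by window, it was in 20.4% of 49 windows of the imprinted genes and in 11.6% of all 32851 windows. The 9 genes were *Copg2*, *Grb10*, *Igf2*, *Meg3*, *Mest*, *Nnat*, *Plagl1*, *Snrpn* and *Zim1*. They include genes that were higher, genes that were lower and genes that were not called. The letters GCCATCTT, which YY1 binds, were in a window of 3.12% of the imprinted genes and 3.19% of all genes. The CG dinucleotide, the site of DNA methylation, occurred a median of 15 times in the richest window of each imprinted gene, against 8 over all genes. Imprinted genes had more windows per gene (49 for 32 genes, against 32851 for 27025), which favours a higher count in their richest window. A match is a description of the sequence and says nothing of binding in these cells.

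*Peg3* and *Usp29* run in opposite directions from one shared promoter region. The stretch between their gene models in GENCODE M21, chr7:6730432-6730577 of GRCm38, is 146 bases long, and it is shown because of the genes it separates only *Peg3* was called. It is printed on the plus strand, the strand of *Usp29*, with its 5 CG dinucleotides in capitals.
Peg3-Usp29: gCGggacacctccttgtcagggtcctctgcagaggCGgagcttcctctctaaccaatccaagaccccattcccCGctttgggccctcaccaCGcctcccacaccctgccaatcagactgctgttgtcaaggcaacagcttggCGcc

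Of the 38 imprinted genes, 30 (78.9%) were called different between ENCDCs and gut cells at an adjusted p under 0.05 (edgeR quasi-likelihood test with Benjamini-Hochberg adjustment over all tested genes), against a background of 37.9% of all tested genes. They split unevenly, with 21 lower and 9 higher in ENCDCs, where 20.9% of all tested genes were called lower and 17.0% higher. The 38 genes were chosen with earlier results of these data known, so these shares were not tested against the background. Of the 38, 17 were called and at least 2-fold lower and 4 were called and at least 2-fold higher. *Phlda2* and *Dio3*, which had enough counts in gut cells alone, are among the 21 and the 17, and among the other 35 genes with enough counts in both populations 9 were higher, 19 lower and 15 at least 2-fold lower. The median log2 fold change, ENCDC over gut, was -0.83 over the imprinted genes and -0.04 over all tested genes. Over the 35 imprinted genes with enough counts in both populations it was -0.63. For 27 of the 38 genes the values of the 4 ENCDC and the 4 gut libraries did not overlap, which was so for 38.2% of all tested genes. Of the 21 genes known to be expressed from the paternal copy, 7 were higher and 11 lower, with a median of -0.46. The *Snrpn*-*Ube3a* cluster holds 5 of these 7. Of the 14 known to be expressed from the maternal copy, 1 was higher and 9 were lower, with a median of -1.65. The difference between those medians was not tested. *Phlda2* (-3.31) and *Ascl2* (-2.34), both below the maternal median and tested through gut cells alone, are among these 14. *Dio3* (-5.58), tested in the same way, is among the paternal genes. The other 3 genes, *Grb10*, *Gnas* and *Inpp5f*, were not assigned to one parental copy, since their imprinting depends on tissue or transcript.

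**Figure D1:**
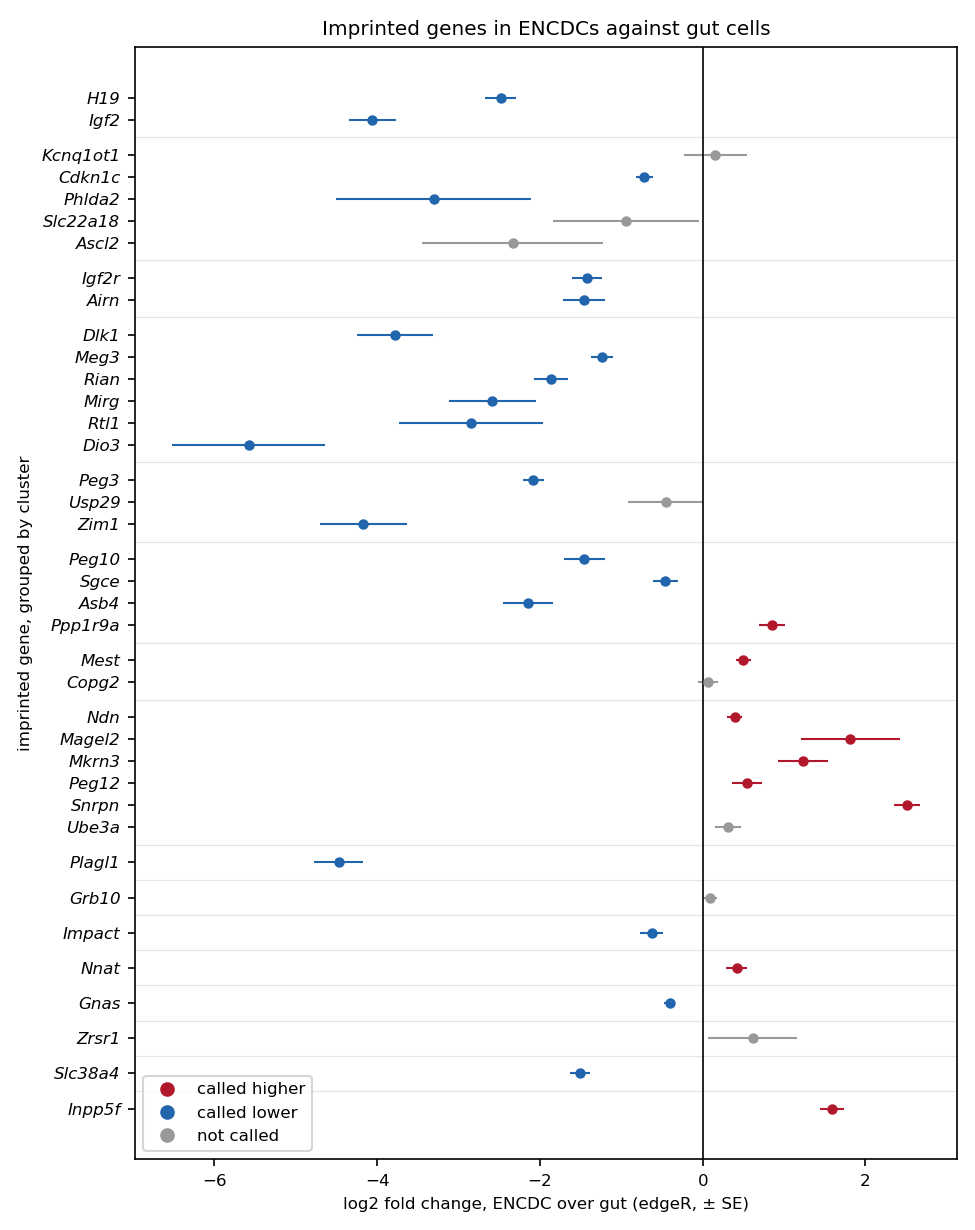
Log2 fold change of each of the 38 imprinted genes, ENCDC over gut (x axis), with its SE as a bar; genes are grouped by imprinted cluster and coloured by call at an adjusted p under 0.05. All 6 *Dlk1*-*Dio3* genes lie to the left of 0, and all 6 genes of the *Snrpn*-*Ube3a* cluster lie to the right, 5 of them called.

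Together the 38 genes took up 0.758% ± 0.027 of all counts in ENCDCs and 1.09% ± 0.057 in gut cells (mean ± SD, n = 4 libraries each). *Grb10* and *Mest* alone held 52.5% ± 2.63 of those counts in ENCDCs and 31.4% ± 1.15 in gut cells. Per kilobase of exon, *Mest* ranked 24th of 18845 genes in ENCDCs, *Nnat* 67th, *Cdkn1c* 76th and *Grb10* 115th. In gut cells *Cdkn1c* ranked 25th and *Mest* 49th on the same scale. Several imprinted genes of ENCDCs were thus among their most abundant mRNAs although most of the family was lower there than in gut cells.

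The *H19*-*Igf2* cluster on chromosome 7 was low in ENCDCs on both sides. *Igf2* encodes a fetal growth factor and is expressed from the paternal copy. Its normalized counts (deposited counts after TMM scaling, used throughout) were 78.2, 50.9, 105 and 34.1 in the 4 ENCDC libraries and 1057, 1018, 1175 and 1247 in the gut libraries. The groups lay far apart, and *Igf2* was 16.7-fold higher in gut cells (log2 fold change -4.06 ± 0.29 SE, adjusted p = 1.22e-06). *H19*, a maternally expressed noncoding RNA that shares enhancers with *Igf2*, had 922, 737, 1119 and 564 counts in ENCDCs against 3946, 4725, 4812 and 5204 in gut cells. It fell by 2.48 ± 0.19 on the log2 scale (adjusted p = 2.05e-06). Most exon bases of *Igf2* lie also in the overlapping model *Gm49394*, to which the table gives 1 count over all libraries, and how reads in the shared bases were assigned is not given in the sources used here. The *H19* exon holds the hairpin of miR-675, a microRNA whose mature strands start with the seeds shown in capitals (bases 2 to 8, RefSeq). Those strands were not measured in these libraries.
mmu-miR-675-5p: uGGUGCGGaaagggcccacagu
mmu-miR-675-3p: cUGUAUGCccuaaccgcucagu

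*Igf2r*, on chromosome 17, encodes the receptor that carries IGF2 to lysosomes, and is expressed from the maternal copy. It had 1109, 994, 1594 and 1785 counts in ENCDCs and 3814, 3244, 4290 and 3333 in gut cells. It fell by 1.42 ± 0.18 on the log2 scale (adjusted p = 0.00011). *Airn*, the paternal noncoding RNA that runs across *Igf2r* on the other strand and silences it, had 145, 77.3, 95.4 and 83.7 counts in ENCDCs and 297, 223, 306 and 279 in gut cells. It fell by 1.46 ± 0.25 (adjusted p = 0.000967), and neither gene's groups overlapped. The libraries did not mark strand, so in the shared region unspliced reads of the pair could not be told apart.

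The *Kcnq1ot1* cluster, on chromosome 7 next to *Igf2*, was called in part. *Cdkn1c*, the maternally expressed cyclin-dependent kinase inhibitor p57, had 7476, 7619, 9362 and 6837 counts in ENCDCs and 12147, 12855, 12132 and 14369 in gut cells. That was 1.65-fold higher in gut cells with no overlap (log2 fold change -0.72 ± 0.10, adjusted p = 0.000244). *Kcnq1ot1*, the long unspliced paternal RNA that silences this cluster, had 2350, 949, 3885 and 1227 counts in ENCDCs and 2780, 1642, 1804 and 1333 in gut cells. Its groups overlapped, it was not called (log2 fold change 0.15 ± 0.39, adjusted p = 0.789), and its sign turned without ENCDC replicate 3 (-0.32). Since strand was not marked, reads from unspliced *Kcnq1* on the other strand could not be told from it.

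The other 3 genes of that cluster were scarce. *Phlda2*, a maternally expressed brake on placental growth, had no count in ENCDC replicates 1, 2 and 4, 9.04 in replicate 3, and 26.2, 31.5, 17.8 and 18.8 in gut cells. It passed the filter on low counts through gut cells alone, and was called lower by a narrow margin (log2 fold change -3.31 ± 1.20, adjusted p = 0.0495). The call was lost when any one library other than ENCDC replicate 3 was left out (adjusted p up to 0.0925), and it held without that replicate (adjusted p = 0.000686). *Slc22a18*, a maternally expressed transporter gene, had 2.03 to 24.1 counts in ENCDCs and 3.95 to 35.0 in gut cells and was not called (adjusted p = 0.448). *Ascl2*, a maternally expressed transcription factor gene of the placenta and of intestinal stem cells, had 0 to 7.12 counts in ENCDCs and 5.92 to 20.8 in gut cells. It was not called (log2 fold change -2.34 ± 1.11, adjusted p = 0.123). It was called lower without ENCDC replicate 2 (-3.92, adjusted p = 0.0278) and with voom and limma (-2.94, adjusted p = 0.0247).

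All 6 genes of the *Dlk1*-*Dio3* cluster on chromosome 12 were lower in ENCDCs, the paternal coding genes and the maternal noncoding RNAs alike, and none of the 6 overlapped between populations. *Dio3* had too few ENCDC counts to pass the filter there. *Dlk1*, a paternally expressed Notch-like membrane protein of immature mesenchyme, had 655, 332, 1726 and 376 counts in ENCDCs and 10092, 9354, 10965 and 12117 in gut cells. It was 13.8-fold higher in gut cells (log2 fold change -3.78 ± 0.47, adjusted p = 7.97e-05). Without ENCDC replicate 3, the highest of its group, the log2 fold change was -4.55. *Meg3*, the maternal noncoding RNA of the cluster, had 1260, 1216, 1058 and 863 counts in ENCDCs and 3037, 2423, 2333 and 2568 in gut cells. It fell by 1.24 ± 0.14, the smallest change of the 6 genes (adjusted p = 3.51e-05).

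*Rian*, a maternal noncoding RNA that hosts many small nucleolar RNAs, had 246, 303, 488 and 269 counts in ENCDCs and 1367, 1052, 1262 and 1086 in gut cells (log2 fold change -1.87 ± 0.21, adjusted p = 4.1e-05). *Mirg*, the maternal RNA that hosts the largest group of microRNAs in the cluster, had 6.09 to 21.7 counts in ENCDCs and 60.2 to 95.2 in gut cells (log2 fold change -2.59 ± 0.53, adjusted p = 0.00285). *Rtl1*, a retrotransposon-derived gene with a role in placental capillaries, had 0, 12.2, 2.01 and 5.17 counts in ENCDCs and 25.7 to 45.3 in gut cells. Its log2 fold change was -2.85 ± 0.89 (adjusted p = 0.0261), it was -3.83 without ENCDC replicate 2, and the call was lost without gut replicate 1 or 2 (adjusted p = 0.0575 and 0.058). *Dio3*, the enzyme that inactivates thyroid hormone, had 3 deposited counts in all ENCDC libraries together and 172 in gut cells. The ratio of these sums was 55.4-fold, with an exact 95% interval from 18.7 to 271 for counting error only, and the fit gave an adjusted p of 0.000747. *Dio3* passed the filter on low counts through gut cells alone, so it could only be tested because it was higher there.

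The *Dlk1*-*Dio3* RNAs matter to a study of microRNAs because they hold so many of them. The models of *Meg3*, *Rian*, *Mirg* and *Rtl1* contain 48 RefSeq mature microRNAs with 47 different seeds, of which 26 lie in *Mirg*. Of the 13 inside *Rtl1*, 2 lie on its own strand, and most come from the maternal transcript that runs against it. Mature strands from *Mirg* and from the antisense side of *Rtl1* are shown with their seeds in capitals. The values above are those of the host transcripts, and the mature microRNAs were not analysed here.
mmu-miR-134-5p: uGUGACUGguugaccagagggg
mmu-miR-410-3p: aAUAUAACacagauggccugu
mmu-miR-127-3p: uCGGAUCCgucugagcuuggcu
mmu-miR-136-5p: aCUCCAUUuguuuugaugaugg

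In the *Peg3* cluster on chromosome 7, the genes on either side of the shared promoter printed above differed in their calls. *Peg3*, a paternally expressed zinc finger protein, had 3169, 2729, 2853 and 2920 counts in ENCDCs and 11796, 9499, 15242 and 12824 in gut cells. The ENCDC libraries lay close together, and *Peg3* was 4.23-fold higher in gut cells (log2 fold change -2.08 ± 0.13, adjusted p = 4.74e-07). *Usp29*, the paternally expressed ubiquitin protease gene on the other side, had 87.3, 122, 20.1 and 91.9 counts in ENCDCs and 96.2, 102, 144 and 98.0 in gut cells. It was not called (log2 fold change -0.46 ± 0.46, adjusted p = 0.479), and ENCDC replicate 3 was the lowest library. *Zim1*, the maternally expressed zinc finger gene next to *Peg3*, had 92.4, 30.5, 14.1 and 16.5 counts in ENCDCs and 706, 403, 844 and 821 in gut cells. It was 18.0-fold higher in gut cells (log2 fold change -4.17 ± 0.53, adjusted p = 0.000103), and the log2 fold change was -5.08 without ENCDC replicate 1.

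The *Peg10*-*Sgce* cluster on chromosome 6 was split. *Peg10*, a paternally expressed gene derived from a retrotransposon, had 133, 86.4, 75.3 and 95.0 counts in ENCDCs and 205, 270, 320 and 277 in gut cells (log2 fold change -1.46 ± 0.25, adjusted p = 0.000909). *Sgce*, the paternally expressed epsilon-sarcoglycan gene that starts next to it in the opposite direction, had 939, 798, 654 and 718 counts in ENCDCs and 861, 1314, 1057 and 1047 in gut cells. These groups overlapped. *Sgce* was called lower (log2 fold change -0.46 ± 0.16, adjusted p = 0.0372), and the call was lost without any one of 6 libraries, ENCDC replicate 2, 3 or 4 and gut replicate 2, 3 or 4 (adjusted p up to 0.0816).

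*Asb4*, a gene of a ubiquitin ligase adaptor expressed from the maternal copy, had 208, 369, 634 and 220 counts in ENCDCs and 1503, 1396, 1736 and 1703 in gut cells. It was 4.43-fold higher in gut cells (log2 fold change -2.15 ± 0.31, adjusted p = 0.000247). *Ppp1r9a* encodes neurabin, an actin-binding protein of neurons, and went the other way. It had 899, 719, 572 and 645 counts in ENCDCs and 405, 342, 431 and 395 in gut cells, a rise of 0.85 ± 0.16 with no overlap (adjusted p = 0.00184). Of the 14 maternally expressed genes it was the only one called higher in ENCDCs with all libraries, and *Ube3a* was so called without ENCDC replicate 3.

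**Figure D2:**
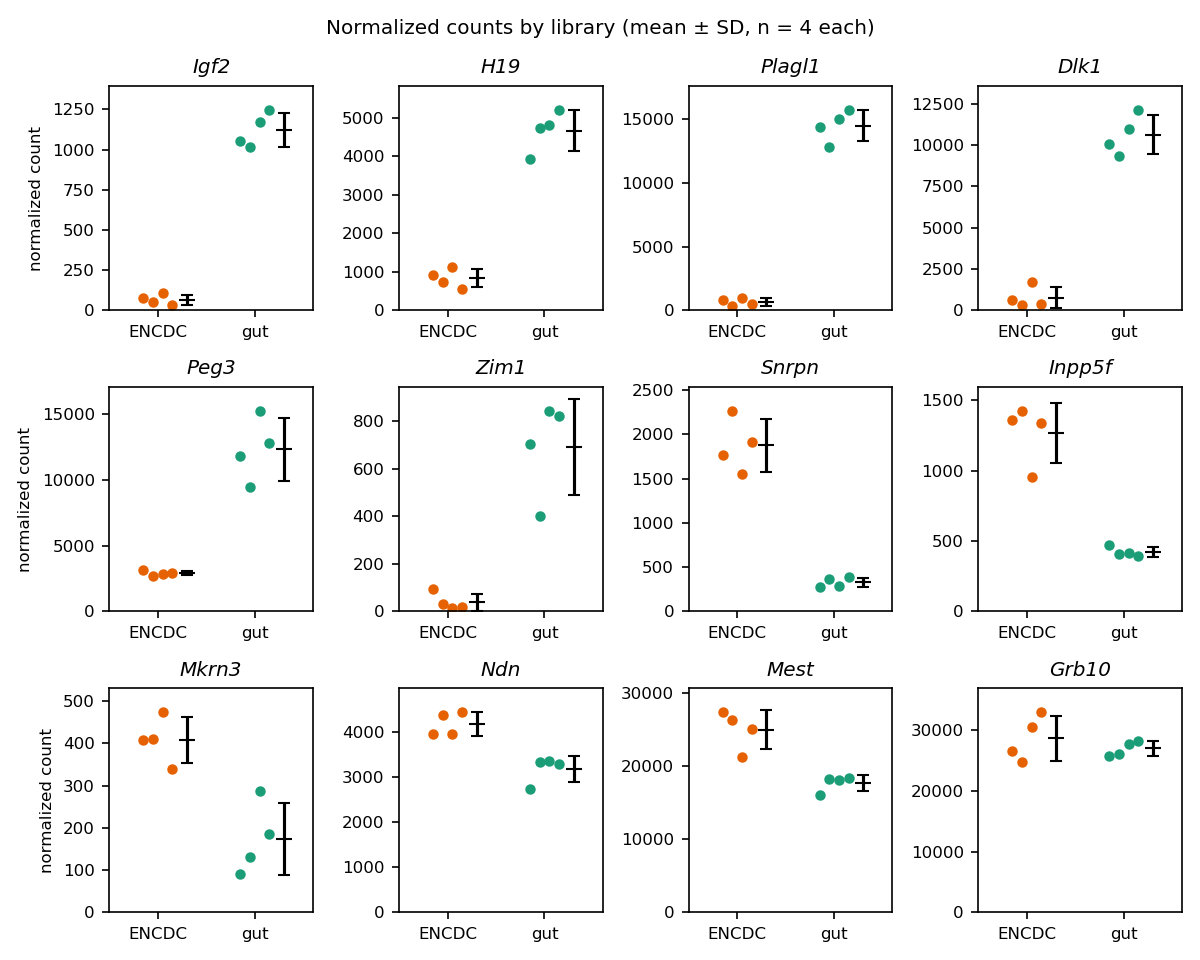
Normalized counts (y axis, linear from 0) of 12 imprinted genes in each ENCDC and gut library, with the mean ± SD of the 4 libraries beside the points. The 6 genes from *Igf2* to *Zim1* are lower in every ENCDC library, *Snrpn* to *Mest* are higher in every ENCDC library, and the values of *Grb10* overlap.

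The *Snrpn*-*Ube3a* cluster on chromosome 7 corresponds to the human region of Prader-Willi and Angelman syndromes, and it was the one cluster here with several genes higher in ENCDCs. Of its 6 genes, 5 were called higher, all of them paternally expressed, and none was called lower. *Snrpn* encodes the splicing protein SmN of neurons. It had 1771, 2262, 1551 and 1917 counts in ENCDCs and 279, 364, 290 and 384 in gut cells. The rise of 2.51 ± 0.16 was the largest of the 38 genes, 5.69-fold (adjusted p = 4.52e-07). *Snrpn* shares 589 exon bases with the model *Gm38393*, which had 189 counts over all libraries, so its level is uncertain by what was assigned there.

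*Ndn*, which encodes the neuronal growth suppressor necdin, had 3954, 4360, 3948 and 4436 counts in ENCDCs and 2739, 3324, 3355 and 3289 in gut cells. The rise was small but free of overlap (log2 fold change 0.39 ± 0.09, adjusted p = 0.00605). *Mkrn3*, a ubiquitin ligase gene that restrains puberty, had 407, 411, 474 and 340 counts in ENCDCs and 91.3, 131, 287 and 185 in gut cells. Its groups did not overlap and it rose by 1.23 ± 0.31 (adjusted p = 0.00906).

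*Magel2*, a gene of protein sorting and ubiquitination, had 239, 209, 34.1 and 105 counts in ENCDCs and 13.6, 65.0, 51.3 and 36.6 in gut cells. It was called higher (log2 fold change 1.81 ± 0.61, adjusted p = 0.036), ENCDC replicate 3 lay among the gut values, and without that replicate the log2 fold change was 2.14 (adjusted p = 0.0033). The *Magel2* call was lost without ENCDC replicate 1 or 2 or gut replicate 1, 3 or 4 (adjusted p up to 0.105), and with voom and limma (0.0878). *Peg12* had 273, 284, 228 and 263 counts in ENCDCs and 178, 156, 176 and 209 in gut cells, which did not overlap (log2 fold change 0.55 ± 0.19, adjusted p = 0.0407). That call too was lost with RLE or no scaling factors (adjusted p = 0.0542 and 0.0588), with no filter on low counts (0.0956) and without ENCDC replicate 1, 2 or 4 or gut replicate 1, 2 or 3 (up to 0.11).

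*Ube3a*, the ubiquitin ligase gene of Angelman syndrome, is expressed from the maternal copy in neurons and from both copies in most other cells. It had 3407, 3115, 1912 and 3320 counts in ENCDCs and 2336, 2253, 2609 and 2302 in gut cells. With ENCDC replicate 3 below every gut library, it was not called (log2 fold change 0.31 ± 0.16, adjusted p = 0.16). Without that replicate it was called higher (0.47, adjusted p = 0.00114). Its exons share 1803 bases with *Snhg14* on the other strand, from which its antisense RNA comes, and the libraries did not mark strand.

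*Mest*, a paternally expressed gene of a hydrolase-like protein of embryonic mesoderm, was the most abundant imprinted mRNA of ENCDCs per kilobase. It had 27434, 26394, 21287 and 25056 counts in ENCDCs and 16042, 18262, 18142 and 18371 in gut cells. The rise was 1.41-fold with no overlap (log2 fold change 0.50 ± 0.09, adjusted p = 0.000937). *Copg2*, a coatomer subunit gene that meets *Mest* tail to tail, had 1333, 1438, 1216 and 1640 counts in ENCDCs and 1507, 1346, 1364 and 1170 in gut cells. It was not called (log2 fold change 0.06 ± 0.12, adjusted p = 0.723). The exons of *Mest* and *Copg2* share 912 bases on opposite strands, so a part of the reads of the scarcer *Copg2* could not be assigned with certainty.

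The 8 remaining genes stand in imprinted domains of their own here, and 3 of them are growth regulators. *Plagl1*, a paternally expressed zinc finger transcription factor that restrains the cell cycle, had 794, 312, 980 and 523 counts in ENCDCs and 14383, 12821, 14979 and 15691 in gut cells. With 22.2-fold more in gut cells it had the largest fold of those among the 38 genes with a mean of at least 100 counts in gut cells (log2 fold change -4.47 ± 0.30, adjusted p = 7.9e-07). *Grb10*, an adaptor that dampens insulin and IGF receptor signalling, is maternal in most tissues and paternal in neurons. It had 26511, 24721, 30397 and 32920 counts in ENCDCs and 25773, 26103, 27730 and 28160 in gut cells, and it was not called (log2 fold change 0.09 ± 0.09, adjusted p = 0.481).

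*Gnas*, the gene of the stimulatory G protein alpha subunit with several imprinted transcripts, had 6029, 5960, 5897 and 5508 counts in ENCDCs and 7684, 7447, 7639 and 8234 in gut cells. It fell by 0.41 ± 0.07 with no overlap (adjusted p = 0.00097). The count sums its transcripts, and 988 exon bases are shared with *Nespas* on the other strand. *Slc38a4*, a paternally expressed amino acid transporter gene of placenta and liver, had 1898, 1468, 1807 and 1926 counts in ENCDCs and 4443, 4601, 5477 and 5667 in gut cells (log2 fold change -1.51 ± 0.12, adjusted p = 2.5e-06). *Impact*, a paternally expressed regulator of translation under amino acid stress, had 510, 489, 513 and 469 counts in ENCDCs and 650, 654, 881 and 874 in gut cells (log2 fold change -0.63 ± 0.14, adjusted p = 0.00532).

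Of these domains, *Inpp5f* and *Nnat* were higher in ENCDCs. *Inpp5f*, a phosphoinositide phosphatase gene with a paternally expressed transcript in brain, had 1364, 1424, 953 and 1337 counts in ENCDCs and 471, 409, 418 and 393 in gut cells. It rose 3.00-fold (log2 fold change 1.59 ± 0.15, adjusted p = 8.56e-06). *Nnat*, the paternally expressed proteolipid neuronatin of developing neurons, had 6547, 7441, 9441 and 7567 counts in ENCDCs and 5694, 5829, 4737 and 6969 in gut cells. These groups overlapped, and it was called (log2 fold change 0.42 ± 0.13, adjusted p = 0.0295), but no longer without scaling factors (adjusted p = 0.0516) and without ENCDC replicate 3 or gut replicate 1, 2 or 3 (up to 0.0848). *Zrsr1*, a paternally expressed splicing factor gene that lies within *Commd1*, had 80.2, 30.5, 32.1 and 22.7 counts in ENCDCs and 23.3, 43.3, 22.7 and 18.8 in gut cells and was not called (adjusted p = 0.418). Its exons share 412 bases with those of *Commd1* on the other strand, which had 6698 counts over all libraries. Reads there could not be told apart by strand.

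The proportions of partners were compared next. The ratio of 15 fixed pairs of genes was compared between populations on log2((first count + 1)/(second count + 1)) by a two-sided exact permutation test over the 8 libraries. No pair passed an adjusted p of 0.05. The 70 arrangements allow no p below 0.0286. That floor, an unadjusted p under 0.05, was reached by 8 pairs, with no overlap between populations. The lowest adjusted p, 0.0536, was set by that floor and by how many of the 15 pairs reached it. Some pairs share a gene, so the pairs are not independent. Ratios below are of counts not divided by gene length, so they compare the populations and not the genes.

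The *H19* to *Igf2* ratio was 11.7, 14.2, 10.5 and 16.1 in ENCDCs and 3.73, 4.64, 4.09 and 4.17 in gut cells, a difference of 1.64 in log2 ratio. Both RNAs were lower in ENCDCs, and the point estimate of the fall was greater for *Igf2*. The *Dlk1* to *Meg3* ratio was 0.52, 0.273, 1.63 and 0.437 in ENCDCs and 3.32, 3.86, 4.70 and 4.72 in gut cells, a log2 difference of -2.86. The *Peg3* to *Zim1* ratio was 33.9, 86.6, 190 and 167 in ENCDCs and 16.7, 23.5, 18.1 and 15.6 in gut cells, a log2 difference of 2.43. In these pairs the gene with the larger estimated fall was paternal in *Igf2* and *Dlk1* and maternal in *Zim1*.

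The *Snrpn* to *Ube3a* ratio was 0.52, 0.726, 0.812 and 0.578 in ENCDCs and 0.12, 0.162, 0.112 and 0.167 in gut cells, a log2 difference of 2.23. The *Igf2* to *Igf2r* pair differed by -2.71 and the *Peg10* to *Sgce* pair by -1.01, both also without overlap. The remaining pairs at the floor, *Cdkn1c* to *Phlda2* (3.03) and *Phlda2* to *Slc22a18* (-2.78), rest on the few counts of *Phlda2*. The ratio of *Igf2r* to *Airn* was 7.59 to 21.1 in ENCDCs and 11.9 to 14.5 in gut cells, so the gut range lay inside that of ENCDCs (log2 difference 0.03, adjusted p = 0.943, exact permutation test). The *Peg3* to *Usp29* ratio across their shared promoter was 35.9, 22.2, 135 and 31.4 in ENCDCs and 91.9 to 130 in gut cells, which overlapped through ENCDC replicate 3 (adjusted p = 0.195, exact permutation test).

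**Figure D3:**
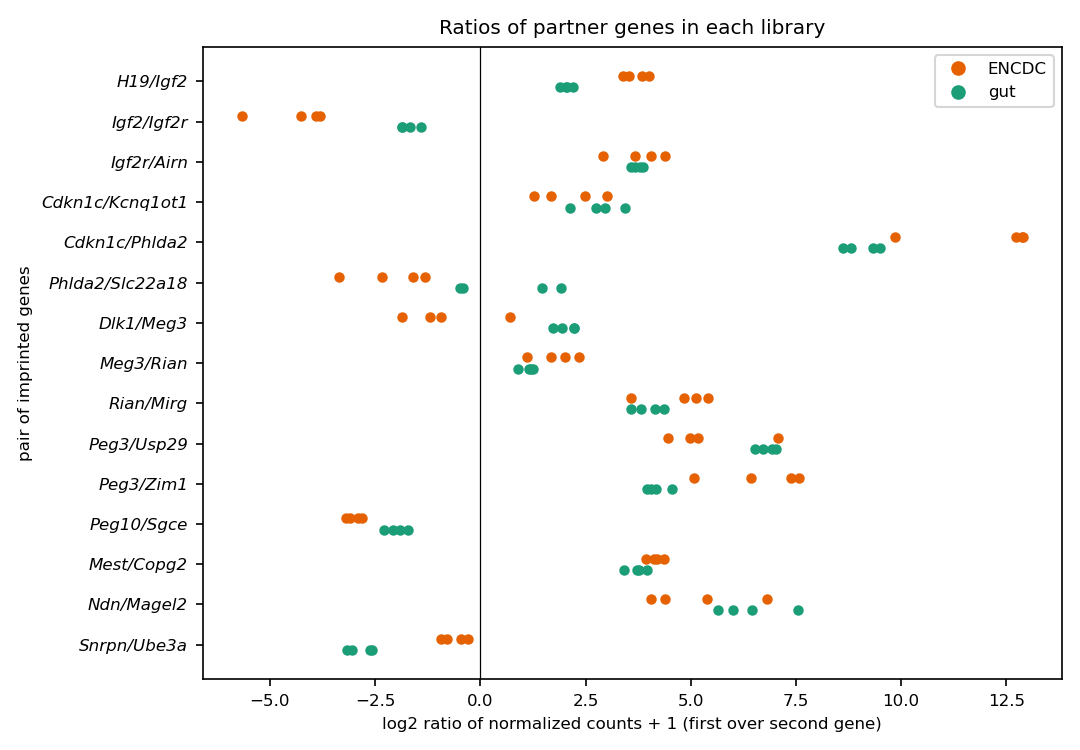
Log2 ratio of normalized counts plus 1 (x axis, first gene over second) for each of 15 pairs of imprinted genes, 1 point per library in ENCDCs and gut cells. *H19*/*Igf2*, *Dlk1*/*Meg3*, *Peg3*/*Zim1* and *Snrpn*/*Ube3a* separate the populations completely, and *Igf2r*/*Airn* overlaps.

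Because the ENCDC libraries held some mesenchyme and smooth muscle marker RNA, the level of the imprinted genes left in each ENCDC library was set beside that of the markers. As a median over the 7 mesenchyme markers, ENCDC replicates 1 to 4 had 4.59, 1.74, 9.94 and 2.67% of the gut mean. Over the 5 smooth muscle markers the median was 6.20, 3.61, 16.3 and 2.13%. All 12 of these markers were called lower in ENCDCs.

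The 17 imprinted genes called and at least 2-fold lower kept medians of 13.3, 22.1, 23.9 and 14.5% in the same libraries. *Igf2* stood at 6.95, 4.52, 9.38 and 3.03%, *Plagl1* at 5.49, 2.16, 6.77 and 3.61%, and *Dlk1* at 6.16, 3.12, 16.2 and 3.54%. Like the mesenchyme and smooth muscle markers, these 3 genes were highest in replicate 3. *Peg3* stood at 25.7, 22.1, 23.1 and 23.7% and *Slc38a4* at 37.6, 29.1, 35.8 and 38.2%. Both genes lay above the mesenchyme and smooth muscle medians in every library, and neither peaked in replicate 3. The epithelial medians, 8.87 to 22.4%, lay below *Peg3* in every library and were highest in replicate 3. The endothelial medians, 57.5, 33.1, 39.2 and 30.4%, lay above *Peg3* in every library and above *Slc38a4* in replicates 1 to 3. Leukocyte, erythroid and mesothelial medians were at most 7.02%. Of the 21 genes called lower, 9 were highest in ENCDC replicate 3, and of the 9 called higher, 7 were lowest there. How often this held among all called genes was not counted, so it cannot be read as a trait of imprinted genes. Across all tested genes, replicate 3 correlated at 0.906 to 0.915 with the other ENCDC libraries, which correlated at 0.944 to 0.951 with one another. The part of gut cell RNA in these results was not tested.

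**Figure D4:**
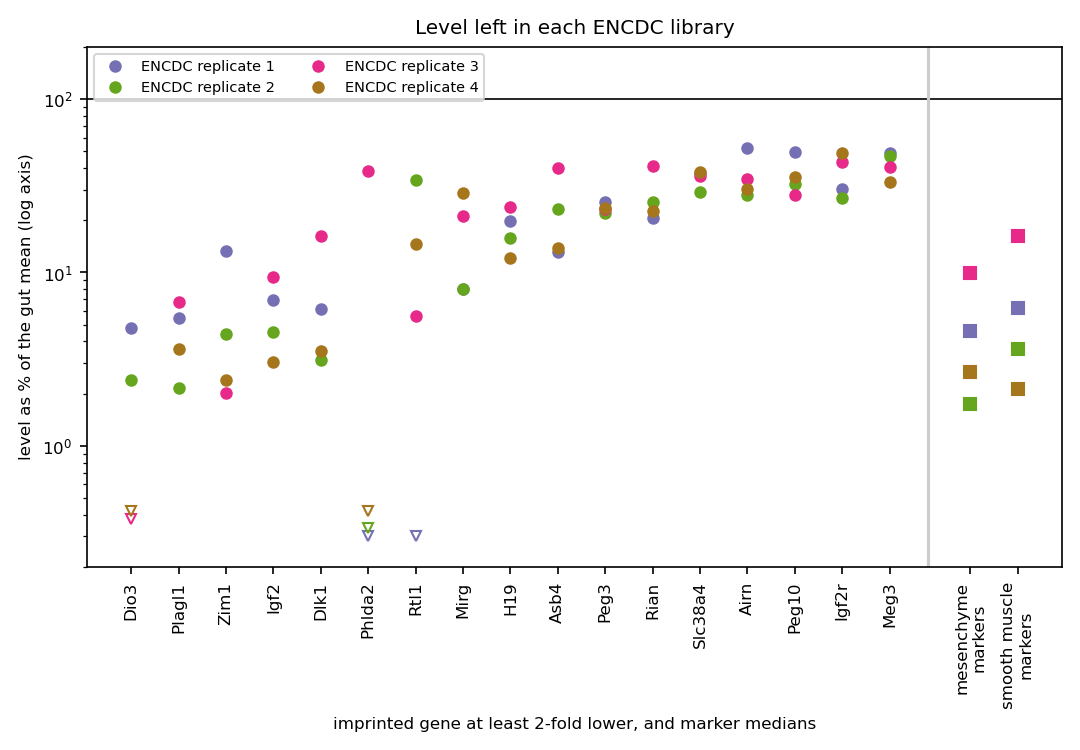
Level of the 17 imprinted genes at least 2-fold lower in ENCDCs, in each ENCDC library as a percent of the gut mean (log axis, line at 100%), beside the medians of mesenchyme and smooth muscle markers; open triangles near the bottom stand for libraries with no count. Replicate 3 has the highest marker medians, 9.94 and 16.3%, and *Peg3* stays between 22.1 and 25.7%.

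A further 45 genes reported as imprinted in at least some tissue or stage were looked at in the same fit. Of these, 42 had a row and 39 were tested, with 7 higher and 15 lower in ENCDCs (56.4% called) and a median log2 fold change of -0.35. *Kcnq1* and *Slc22a3* had no count in any ENCDC library, and the median was the same with both set to the bound given by 3 counts over the 4 libraries. Among the genes called higher, *Peg13*, a paternal noncoding RNA of brain, rose by 2.22 ± 0.21 (log2, adjusted p = 1.13e-05), from a mean of 342 counts in gut cells to 1587 in ENCDCs. *Osbpl5* (0.60 ± 0.13), *Pon2* (0.57 ± 0.16) and *Nap1l4* (0.40 ± 0.08) rose by less.

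Among those called lower, *Dcn*, the matrix proteoglycan decorin and itself one of the mesenchyme markers, had means of 196 counts in ENCDCs and 3682 in gut cells and fell by 4.23 ± 0.39 (log2). *Phactr2* fell by 2.10 ± 0.19. *Cd81*, a tetraspanin gene, fell by 0.73 ± 0.07. *Klhdc10* fell by 0.46 ± 0.15 with overlapping libraries.

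Genes that set or keep imprints were looked at in the same fit. Of 24 listed, 23 had a row and 20 were tested, and 4 of these (20.0%) were called, against 37.9% of all tested genes. *Uhrf1*, which guides maintenance methylation, rose by 0.70 ± 0.14 (log2, adjusted p = 0.00182) and *Trim28*, the corepressor, by 0.29 ± 0.09 (adjusted p = 0.0261). *Dnmt3a*, a de novo methyltransferase, fell by 0.74 ± 0.09 (adjusted p = 9.47e-05). *Zfp57*, whose motif letters were counted above, had 440, 523, 334 and 334 counts in ENCDCs and 646, 651, 512 and 639 in gut cells and fell by 0.59 ± 0.18 with overlap (adjusted p = 0.023). Without ENCDC replicate 3, the count of imprint control genes called higher was 6 in place of 2, with 2 called lower.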

How the data were processed

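mRNA-seq of 4 ENCDC and 4 gut cell libraries (SMARTer cDNA and Nextera XT libraries from 750 pg of RNA, which do not mark strand) was analysed. The authors aligned reads to mm10 with STAR 2.4.2a (submitters' processing notes) and normalized them with PORT, and the deposited values are minimum normalized read counts per gene, in whole numbers, with every library at nearly the same depth. The design text names small RNA and CPM, which the values contradict.

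Counts were fitted in R 4.3.3 with edgeR 4.0.16 (TMM factors, quasi-likelihood F test, Benjamini-Hochberg adjustment, calls at 0.05) over genes that in 1 population or both averaged 3 or more counts and were detected in 3 or more of its 4 libraries. Log2 fold changes are given ± SE. The study used voom and limma, which was an alternative here (limma 3.58.1), as were DESeq2 1.42.0, other factors and filters, a 2-fold test, a replicate block and leaving out each library. The tests were checked on simulated counts. Gene models were GENCODE M21, and sequences came from RefSeq tables. Pairs were tested with a pseudocount of 1 in Python 3.11.15 (scipy 1.17.1, pandas 2.3.3, matplotlib 3.10.9). Per-library values are given for genes with a mean of at least 100 counts in the higher population and genes alone in their cluster, with those of the scarce *Phlda2* and *Rtl1* added after their values were seen. From the other lists, up to 4 called genes per direction with the highest mean counts are named. The rule for members uses no measured value, but members, lists, pairs and markers were chosen with earlier results of these data known. No libraries were near-identical: chi-square per degree of freedom between libraries of a population was 9.10 to 32.8. Small RNA, histology and knockout data were not analysed here.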

Additional observations from a re-analysis of the deposited data

Results flagged for a closer look

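Dixon's gap test on the 4 libraries of a population flagged 6 of the 108 sets of values looked at at its 95% critical value, and chance flags about 1 in 20 such sets. In ENCDCs, *Phlda2* stood out in replicate 3 with 9.04 normalized counts against 0 in the other libraries. With it the log2 ratio of *Cdkn1c* to *Phlda2* was 9.87 in that replicate and 12.7 to 12.9 in the others. *Zrsr1* was high in ENCDC replicate 1, with 80.2 counts. In gut cells, *Usp29* was high in replicate 3, with 144 counts, while *Mest* (16042 counts) and *Ndn* (2739 counts) were both low in replicate 1. The causes were not tested.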

How the results depend on the processing

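Of the 30 called genes, 14 kept their call under all 16 other settings and 24 under all but the test against a 2-fold change, and no called gene changed sign. The test against a 2-fold change called 2 imprinted genes higher and 12 lower, 2 of the further imprinted genes higher, and 0 imprint control genes in either direction. Imprint control genes called higher numbered 1 with RLE factors, with no scaling factors and with the replicate block. Leaving out one library gave 1 to 6 imprint control genes higher and 1 to 3 lower, 6 to 9 imprinted genes higher and 18 to 20 lower. Only genes that were not called turned sign. These were *Kcnq1ot1* with voom and limma (-0.0096), with the replicate block (-0.016) and without ENCDC replicate 3 (-0.32), *Copg2* without ENCDC replicate 4 (-0.017) or gut replicate 4 (-0.00044), and the *Igf2r* to *Airn* ratio without ENCDC replicate 3 (-0.065), ENCDC replicate 4 (-0.18) or gut replicate 4 (-0.021). Over all libraries left out in turn, these values reached 0.40 for *Kcnq1ot1* (without ENCDC replicate 2), 0.13 for *Copg2* (without ENCDC replicate 3) and 0.31 for *Igf2r* to *Airn* (without ENCDC replicate 1). The cause was not tested. The median of all tested genes moved from -0.04 to -0.08 with RLE factors and to -0.09 with none. Same-numbered libraries did not deviate together (correlations -0.017 to 0.0146), and libraries of different numbers gave -0.0448 to 0.0526. These correlations cannot decide whether libraries of one number came from the same bowels, which the labels do not say. The replicate block called 6 imprinted genes higher and 20 lower, and it lost *Sgce*, *Magel2*, *Peg12* and *Nnat* (adjusted p = 0.0684, 0.121, 0.0993 and 0.0609). No pair was called with a pseudocount of 0.5 or without TMM factors either, and with one library left out 3 against 4 samples cannot reach 0.05, so only the differences were recomputed. Small counts limit *Phlda2*, *Ascl2*, *Dio3*, *Rtl1*, *Mirg* and *Slc22a18*.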
